A study of Arabidopsis thaliana with 12 samples.

Results

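The genes described here had a higher transcript level with salt in wild-type *Arabidopsis* seedlings and a lower level in salt-grown iU1-52 seedlings than in salt-grown wild-type seedlings. They were chosen from 24332 array features, each the brightest probe of 1 target that was flagged well above its local background on all 12 arrays. A feature was a member if its mean log2 signal was at least 1 (2-fold) higher in Col-0 on NaCl than in Col-0 on MS, and at least 1 lower in iU1-52 on NaCl than in Col-0 on NaCl. Both differences were met by 157 features, 0.645% of all. Of these, 125 were matched to 123 loci of the annotation, of which 45 carried a gene symbol and 78 did not, and 32 were probes without a matched locus that are named here by their probe ID. The members were 6.54% of the 2402 features with such a difference in Col-0 and 12.8% of the 1226 features with such a difference between the lines on NaCl. These limits alone were passed by 9.87% and 5.04% of all features.

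Transcript levels were measured in whole seedlings grown for 14 days, with one-colour Agilent arrays and 3 replicates per group. The 4 groups were iU1-52 on medium with 200 mM NaCl, Col-0 on the same medium, iU1-52 on MS without added NaCl, and Col-0 on MS. Col-0 is the wild type, and iU1-52 is a single transgenic line that carries an interference construct (double-stranded RNA) against *GlcNA.UT1* in a *glcna.ut2-1* background, so both genes for the last enzyme of UDP-N-acetylglucosamine synthesis were targeted. None of the groups held *glcna.ut2-1* seedlings without the construct, so the effects of the mutation and of the construct cannot be told apart. *GlcNA.UT2* was lower in iU1-52 than in Col-0 on MS, with a difference of -1.0 on the log2 scale (limma adjusted p = 0.0073). On NaCl its difference was -0.52. Here 0 features were matched to *GlcNA.UT1*, so its level was not read. The paper reports significantly reduced *GlcNA.UT1* on these arrays in both media. For *GlcNA.UT2* it reports no significant reduction, most likely because a truncated transcript is still detected. Each replicate number corresponded to 1 slide, and each group took 1 fixed position on the slides, so the effects of group and position cannot be told apart.

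High salt withdraws water from plant cells and loads them with sodium, and seedlings respond through abscisic acid, osmoprotection, ion transport, detoxification of reactive oxygen and slower growth. Jasmonate, made from plastid lipids through lipoxygenase and allene oxide cyclase, drives wound and herbivore defense, whereas salicylic acid drives defense against biotrophic pathogens through secreted pathogenesis-related proteins. Cytokinin and auxin set the rate of division and expansion in growing organs. UDP-N-acetylglucosamine is the sugar donor with which the N-glycans of secretory and membrane proteins are started.

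The flag for a signal well above background was set on 75.4% to 79.4% of an array's spots, and 0 spots were saturated. iU1-52 NaCl replicate 1 stood apart from the others. Its signals deviated from the group mean by 0.329 on the log2 scale (root mean square over all features), against 0.0991 to 0.206 on the other 11 arrays. Among the members it was the highest of the 3 iU1-52 NaCl arrays for 118 of 157 features, a share of 75.2%, compared with 45.5% of all features. Without this array, 155 of the 157 members still had a difference of -1 or lower between iU1-52 and Col-0 on NaCl.

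The 2 differences of the rule chose the members, so they are given as a description with no test. On the log2 scale, Col-0 NaCl minus Col-0 MS ranged from 1.00 to 6.53 among the members with a median of 1.67, and iU1-52 NaCl minus Col-0 NaCl ranged from -4.48 to -1.01 with a median of -1.47. The medians over all features were 0.01 and 0.05. Just inside the salt limit lay A_84_P17640 (1.00), A_84_P701779 (1.00) and AT4G02850 (1.01), and just outside it lay *NUDT6* (0.99), AT1G75890 (0.97) and *COR15B* (0.97). At the limit between the lines, A_84_P18124, *RD20* and AT4G22755 were inside with -1.01 each, while *EDA12* (-1.0), AT2G38160 (-0.99) and *CNGC18* (-0.98) were outside.

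Most members kept a minor part of the Col-0 salt difference in iU1-52. The salt difference in iU1-52, NaCl minus MS, had a median of 0.32 among the members and ranged from -2.14 to 4.45, while the other 2245 features that were at least 2-fold higher with salt in Col-0 had a median of 1.72 in iU1-52. Among the same 157 members this median was 0.73 in replicate 1, 0.24 in replicate 2 and -0.02 in replicate 3, each read within its own replicate number, and it was 0.12 without iU1-52 NaCl replicate 1. A lower value among the members follows in part from the rule, since the iU1-52 NaCl arrays were used to choose them. In iU1-52, 37 of the 157 members had a salt difference of at least 1, against 12.1% of all features and 76.9% of the features that passed the salt limit in Col-0. For 62 members the difference lay between 0 and 1, and for 58 it was below 0, where 46.4% of all features were. Without iU1-52 NaCl replicate 1, 30 of the 157 had a difference of at least 1 and 71 one below 0. It was -1 or lower for 15 members (12.5% of all features).

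The plot of salt differences in both lines shows every member below the line of equal response. This follows largely from the rule, which put every member at least 1 lower in iU1-52 than in Col-0 on NaCl. A member could lie above that line only if iU1-52 was lower by even more on MS. Expressed as a share of the Col-0 difference on the log2 scale, the part kept in iU1-52 had a median of 20.03%, with quartiles of -18.7% and 41.8%, and a median of 5.88% without iU1-52 NaCl replicate 1. It was under 50% for 129 members, under 25% for 87 and over 75% for 4. The rule limits this share too, most of all for members with a small Col-0 difference. The 4 were AT4G02170 (88.1%), AT5G17350 (87.1%), AT4G27652 (77.9%) and AT2G41730 (75.6%), which are singled out here after their values were seen. Without Col-0 MS replicate 2, which stood apart for AT5G17350 and AT4G27652, these kept 63.2% and 60.2%, and only AT4G02170 (87.6%) and AT2G41730 (78.3%) of the 157 members were over 75%. Without iU1-52 NaCl replicate 1, AT2G41730 was no longer over 75% and AT5G45095 was.

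**Figure D1:**
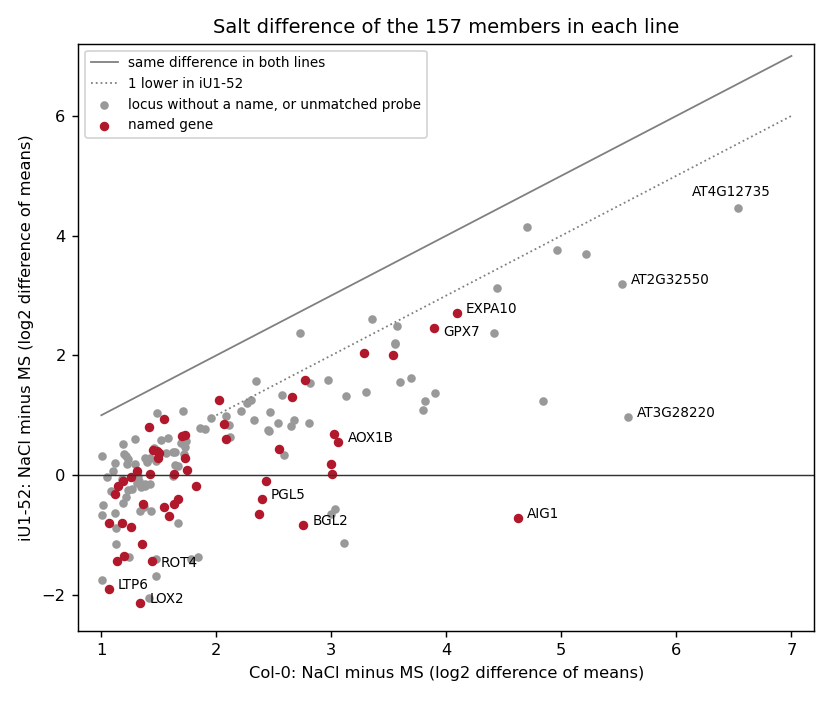
Log2 difference NaCl minus MS of the 157 members in iU1-52 (vertical axis) against Col-0 (horizontal axis), with red points for genes that have a name. The members range from 1.00 to 6.53 in Col-0 and from -2.14 to 4.45 in iU1-52, and 58 points lie below 0 in iU1-52.

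The members with the largest salt difference in Col-0 were mostly loci without a name in the annotation, and several of them kept much of it in iU1-52. The rule asked only for a gap of at least 1 between the lines on NaCl. A large Col-0 difference could therefore be kept to a larger share than a small one. AT4G12735 had the largest difference, 6.53 (92.5-fold). Its log2 signals were 12.38, 12.18 and 11.89 on the iU1-52 NaCl arrays and 13.63, 13.65 and 13.52 on the Col-0 NaCl arrays, beside 8.06, 7.78 and 7.25 on the iU1-52 MS arrays and 7.43, 6.56 and 7.21 on the Col-0 MS arrays. Salt-grown iU1-52 thus lay below salt-grown Col-0 on every array, by 2.73-fold, and still far above its own MS level, with a salt difference of 4.45.

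AT2G32550 showed the same order, with 8.12, 8.40 and 8.02 in iU1-52 on NaCl and 10.19, 10.11 and 10.17 in Col-0 on NaCl, beside 5.09, 4.94 and 4.93 in iU1-52 on MS and 4.90, 4.45 and 4.55 in Col-0 on MS. The spread within a group was at most 0.23 (SD, n = 3) for this gene, and the groups on NaCl were separated by 1.98. Comparable patterns were seen for AT2G41730 (4.96 in Col-0, 3.75 kept in iU1-52) and AT5G47330 (4.44 and 3.13 in the same order). AT4G02170 also kept much of its salt difference (4.70 and 4.14), but its lines overlapped on NaCl. It was at 10.06, 8.78 and 9.35 in iU1-52 and at 10.38, 11.02 and 9.87 in Col-0 on NaCl. In contrast, AT3G28220 had a salt difference of 5.58 in Col-0 and 0.97 in iU1-52, where its MS level was already higher than in Col-0.

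AT4G27654 and its neighbour AT4G27652 had salt differences of 5.21 and 3.35 in Col-0, but their Col-0 MS arrays disagreed. The log2 signals of AT4G27654 on the Col-0 MS arrays were 5.63, 10.27 and 5.99, and those of AT4G27652 were 9.18, 12.12 and 9.13. In both genes replicate 2 was far above the other 2 arrays of its group. Such a gap of at least 1 above both other arrays was found in Col-0 MS replicate 2 for 7 members, which also included AT3G09870, AT5G17350, *NUDT4*, *PGSIP7* and AT5G52020, and for 0.366% of all features. Without that array the Col-0 salt difference of the 7 members was between 2.01 and 6.70, and that of AT5G17350 was 3.77, compared with 2.73 over all arrays.

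The widest gap between the lines on NaCl belonged to probes and genes of quite different kinds. A_84_P861883, a probe without a matched locus, averaged 6.56 ± 1.35 in iU1-52 and 11.04 ± 0.08 in Col-0 on NaCl (SD, n = 3 each). *AIG1*, a GTPase gene known for its induction by the bacterial effector AvrRpt2, was next with a difference of -4.47. Its log2 signals were 6.08, 6.39 and 5.39 on the iU1-52 NaCl arrays and 10.31, 10.56 and 10.41 on the Col-0 NaCl arrays, beside 6.50, 6.04 and 7.46 on the iU1-52 MS arrays and 5.56, 5.50 and 6.34 on the Col-0 MS arrays. The Col-0 NaCl arrays were thus the only high ones, 24.6-fold above Col-0 on MS, and the other 3 groups overlapped.

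*ROT4*, which encodes a small peptide that restricts cell proliferation along the leaf axis, had 6.32, 4.79 and 4.94 in iU1-52 on NaCl and 9.0, 8.56 and 8.57 in Col-0 on NaCl, beside 6.65, 6.60 and 7.12 in iU1-52 on MS and 7.07, 7.31 and 7.45 in Col-0 on MS. Every salt-grown iU1-52 array was below every MS array, and the gap between the lines on NaCl was 10.3-fold. The lipid transfer protein gene *LTP6* had a difference of -3.01 between the lines on NaCl and AT2G40520 one of -2.91. AT5G50915 was represented by 2 features, at -3.26 and -3.25, with salt differences of 3.00 and 3.03 in Col-0 and of -0.66 and -0.57 in iU1-52.

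**Figure D2:**
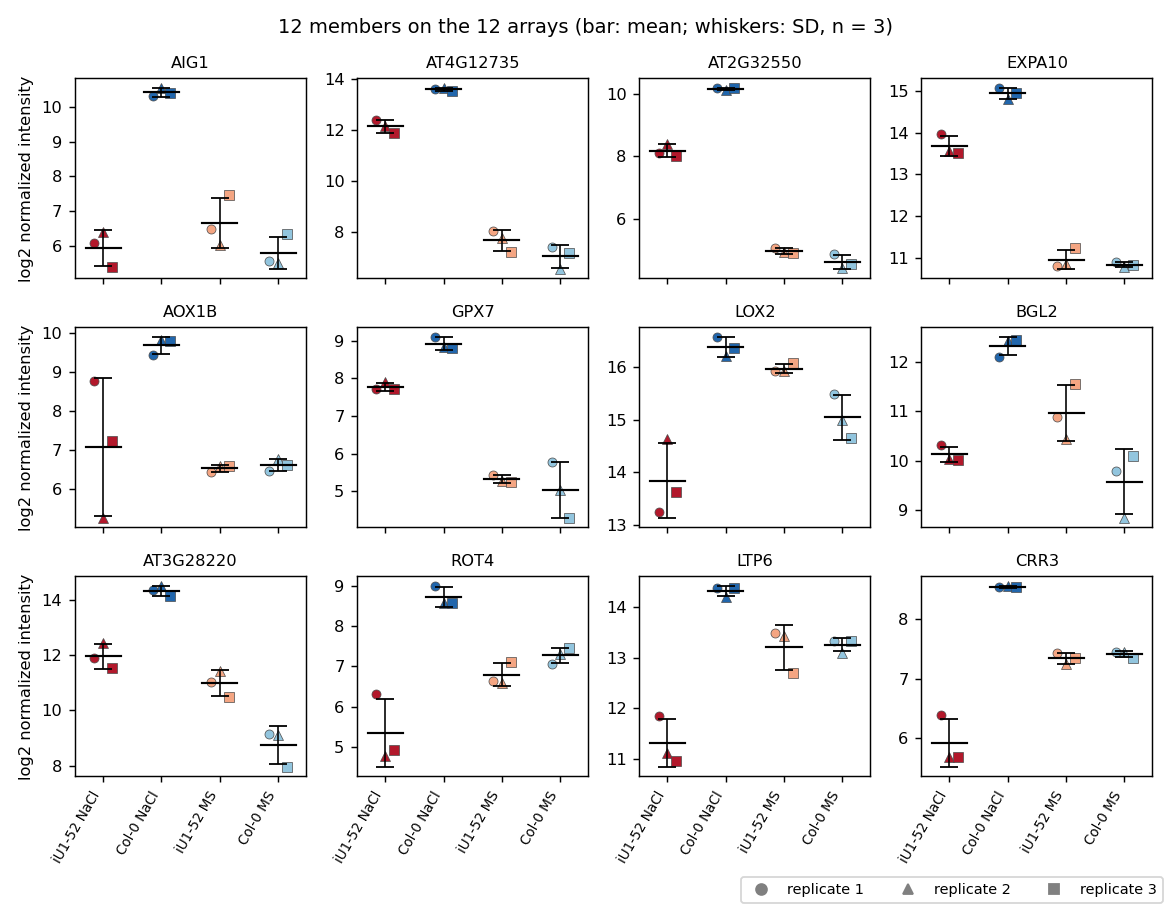
Log2 normalized signal (vertical axes, 1 range per gene) of 12 members on each array, in the order iU1-52 NaCl, Col-0 NaCl, iU1-52 MS and Col-0 MS. Symbols mark the replicate numbers, the horizontal bar is the mean and the whiskers are the SD (n = 3). Col-0 NaCl is the highest group in every panel, while iU1-52 NaCl is near or below the MS groups for *AIG1*, *LOX2*, *ROT4*, *LTP6* and *CRR3* and well above them for AT4G12735, AT2G32550, *EXPA10* and *GPX7*.

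For 28 of the 157 members, all iU1-52 NaCl arrays were below all iU1-52 MS arrays, so that the line went the other way from Col-0 with salt. This separation in iU1-52 was less frequent among the members than among all features, where 30.8% had it. For 57 members all iU1-52 NaCl arrays were above all iU1-52 MS arrays (36.8% of all features). The 5 lowest salt differences in iU1-52 among members with a locus were those of *LOX2* (-2.14), *LTP6* (-1.90), AT5G24200 (-1.68), *ROT4* (-1.44) and *CRR3* (-1.43). *LTP6* had 11.85, 11.12 and 10.95 on NaCl and 13.48, 13.43 and 12.70 on MS in iU1-52, against 14.38, 14.20 and 14.38 on NaCl and 13.33, 13.10 and 13.33 on MS in Col-0. The order of the media was opposite in the lines, with no overlap in either.

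To describe the functions of the members, 50 genes with a symbol or a family name in the annotation were placed in 10 groups by their known roles, with their values in view, so that the groups carry no test. The other 73 loci had no such name. A sorting of all loci by key words in the annotation placed 82.9% of the member loci and 79.2% of all loci in no class, so the members were about as poorly annotated as the array as a whole.

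Genes of jasmonate synthesis and response, together with myrosinase-associated genes, formed the group with the lowest salt differences in iU1-52 among the groups of at least 4 genes. Its 7 genes and 8 features had a median salt difference of -0.72 in iU1-52 and of 1.49 in Col-0, and 6 of the 8 features were below 0 in iU1-52. *LOX2*, the plastid lipoxygenase that starts jasmonate synthesis in wounded leaves, had log2 signals of 13.25, 14.63 and 13.62 in iU1-52 on NaCl and 16.58, 16.21 and 16.36 in Col-0 on NaCl. On MS it had 15.92, 15.92 and 16.07 in iU1-52 and 15.49, 14.99 and 14.65 in Col-0. The lines were in opposite order in the 2 media, with the groups separated in both.

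*AOC2*, an allene oxide cyclase that acts after the lipoxygenase, averaged 10.88 ± 0.33 in iU1-52 and 12.77 ± 0.26 in Col-0 on NaCl (SD, n = 3 each). The vegetative storage protein gene *VSP2*, a common jasmonate marker, was at 12.23, 13.21 and 12.68 in iU1-52 and at 14.50, 13.95 and 14.11 in Col-0 on NaCl. A brighter feature of *VSP2* missed the salt limit with 0.89 in Col-0 and had -1.69 between the lines on NaCl. The neighbouring myrosinase-binding protein genes *MBP1* and *MBP2* had differences of -1.82 and -1.02 between the lines on NaCl, and the arginase gene *ARGAH2*, which is induced by jasmonate, had -2.16 and -2.08 for its 2 features. *BGLU18*, a beta-glucosidase that releases abscisic acid from its glucose ester, was at 14.87, 15.80 and 14.93 in iU1-52 and at 16.66, 16.70 and 16.70 in Col-0 on NaCl.

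These genes were a minority of the jasmonate genes on the array. From a list of jasmonate genes, 32 had a feature, of which 16 were called higher with salt in Col-0 (9.81% of all features) and 2 lower (10.3%). A gene was called where limma gave an adjusted p under 0.05 and the means differed 2-fold or more. Between the lines on NaCl, 6 were called lower in iU1-52 (4.97% of all features), 5 of them being genes with a member feature, chosen on that difference, and the other being *VSP1*, and 4 were called higher (3.94%). The 4 were *LOX3* (1.05), *CYP94B3* (1.31), *ST2A* (1.38) and *JAL23* (1.41). The JAZ repressor genes *JAZ1*, *JAZ5*, *JAZ7*, *JAZ8* and *JAZ10*, early targets of the jasmonate receptor, were called higher with salt in Col-0 (1.74 to 4.02) and were not called between the lines on NaCl, where their differences lay between -0.66 and 0.53. The list's median difference on NaCl was 0.18, against 0.05 for all features.

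**Figure D3:**
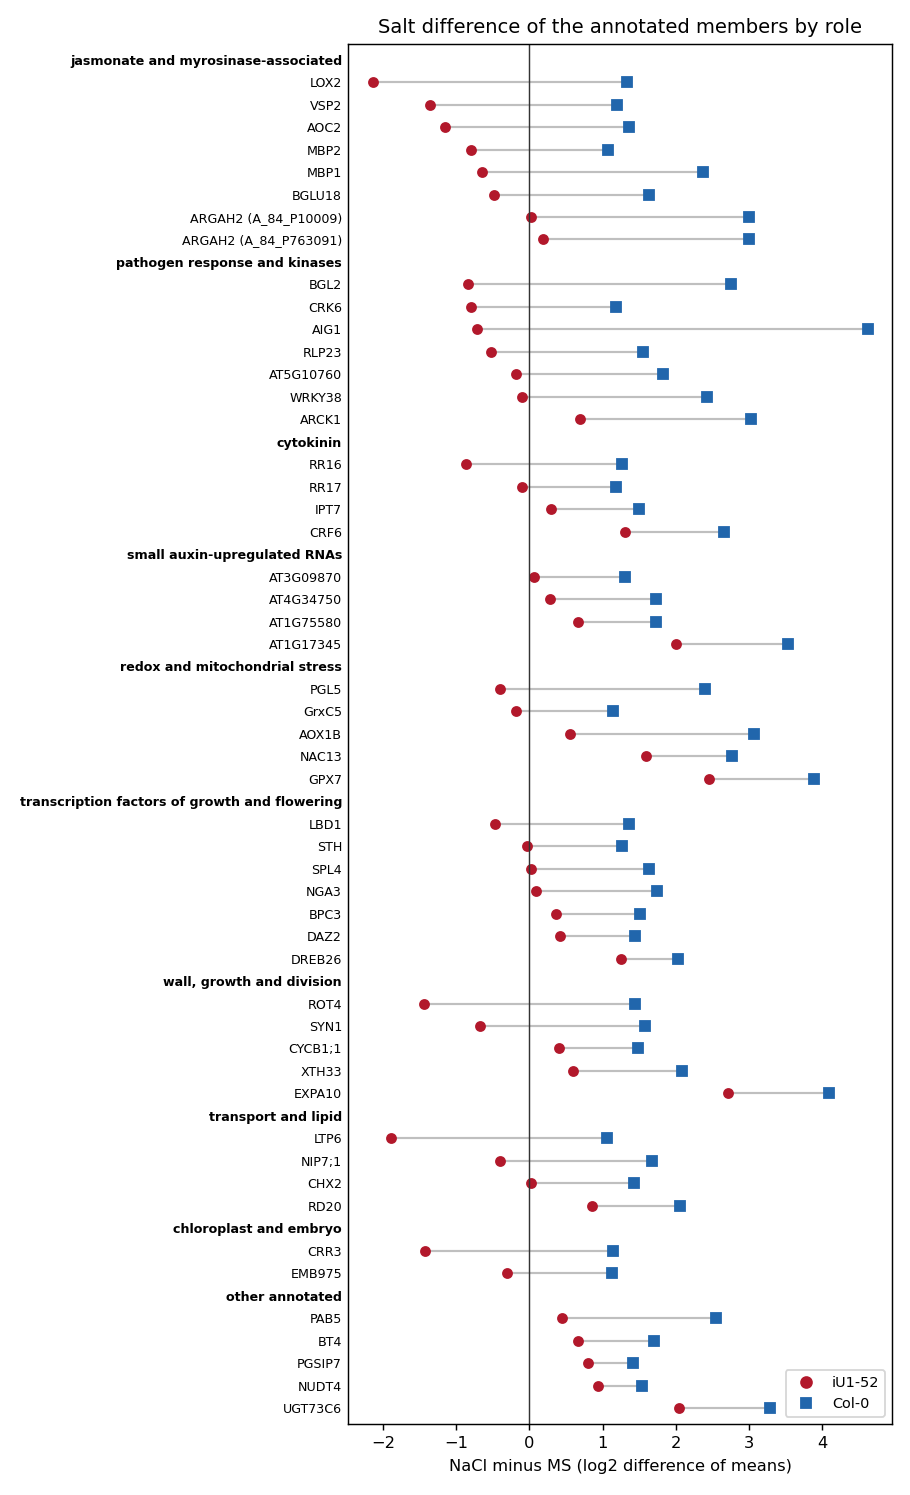
Log2 difference NaCl minus MS of the 50 annotated member genes (51 features), iU1-52 as circles and Col-0 as squares, sorted by role and within a role by the iU1-52 value. In the jasmonate group 6 of 8 features lie below 0 in iU1-52, in the pathogen response group 6 of 7, and *GPX7*, *EXPA10*, AT1G17345 and *UGT73C6* keep differences of 2.00 to 2.71.

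Genes known from pathogen responses and related kinases formed a group of 7, with a median salt difference of -0.53 in iU1-52 and 2.43 in Col-0. Besides *AIG1*, it held *BGL2*, the secreted beta-1,3-glucanase also called PR2 and a marker of salicylic acid signalling. *BGL2* was at 10.31, 10.04 and 10.02 in iU1-52 and at 12.10, 12.43 and 12.44 in Col-0 on NaCl, and at 10.88, 10.44 and 11.56 in iU1-52 and 9.79, 8.83 and 10.09 in Col-0 on MS. On NaCl the lines were clearly apart with iU1-52 lower, and on MS they were apart with iU1-52 higher. The transcription factor gene *WRKY38* had 10.06, 9.06 and 9.47 in iU1-52 and 10.81, 11.35 and 10.83 in Col-0 on NaCl.

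The remaining genes of this group were receptors, kinases and a secreted protein. *RLP23*, the cell-surface receptor for a microbial peptide shared by many pathogens, had salt differences of -0.53 in iU1-52 and 1.55 in Col-0. Its signals were dim, and in iU1-52 the media overlapped, with 4.87, 5.16 and 5.66 on NaCl and 5.65, 5.03 and 6.59 on MS. The cysteine-rich receptor kinase gene *CRK6* had -0.80 in iU1-52 and 1.18 in Col-0, and AT5G10760, annotated as *AED1* for its dependence on the immune regulator EDS1, had -0.18 and 1.82 in the same order. *ARCK1*, a kinase linked to abscisic acid and osmotic stress, kept 0.69 in iU1-52 of 3.02 in Col-0. From a list of genes of salicylic acid and defense, 32 had a feature, and 2 of them were members (0.645% of all features). Symbols that did not name a single locus, PR2 (*BGL2*) and *AED1* among them, are not counted in this list. On NaCl, 4 genes of that list were called lower in iU1-52 (4.97% of all features) and 5 higher (3.94%).

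Of the cytokinin genes, the type-A response regulators *RR16* and *RR17*, which dampen cytokinin signalling, were members together with the biosynthetic gene *IPT7* and the transcription factor gene *CRF6*. *RR16* was at 7.95, 7.72 and 7.51 in iU1-52 and at 9.58, 9.88 and 9.56 in Col-0 on NaCl, beside 8.63, 8.65 and 8.50 in iU1-52 and 8.83, 8.25 and 8.17 in Col-0 on MS. In iU1-52 all NaCl arrays were below all MS arrays, and in Col-0 they were above them. *CRF6* was at 12.34, 11.98 and 11.90 in iU1-52 and at 13.43, 13.39 and 13.40 in Col-0 on NaCl, and it kept a salt difference of 1.31 in iU1-52 of 2.65 in Col-0. *RR17* had -0.10 in iU1-52 and 1.19 in Col-0, and *IPT7* 0.29 in iU1-52 and 1.5 in Col-0.

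A further 4 members were small auxin-upregulated RNAs, short-lived transcripts that are linked to cell expansion. AT1G17345 (*SAUR77*) had the largest salt differences of these, 2.00 in iU1-52 and 3.54 in Col-0. AT4G34750 (*SAUR49*) was at 11.60, 10.02 and 9.86 in iU1-52 and at 12.14, 11.90 and 11.92 in Col-0 on NaCl. iU1-52 replicate 1 was much closer to Col-0 than its other replicates, and without it the difference between the lines was -2.05, compared with -1.49 over all arrays. AT1G75580 (*SAUR51*) had 0.66 in iU1-52 and 1.73 in Col-0, and AT3G09870 (*SAUR48*) had 0.06 in iU1-52 and 1.31 in Col-0, where its MS replicate 2 stood apart as it did for AT4G27654.

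The redox group of 5 genes had a median salt difference of 0.55 in iU1-52 and 2.77 in Col-0, with a range of -0.40 to 2.45 in iU1-52. A median of 18.1% of the Col-0 difference was kept. The 0.55 and the 18.1% are the values of *AOX1B*, whose iU1-52 NaCl arrays disagreed. Without iU1-52 NaCl replicate 1 its salt difference in iU1-52 was -0.29, so these medians describe the group poorly. *GPX7*, a chloroplast glutathione peroxidase, was at 7.73, 7.89 and 7.71 in iU1-52 and at 9.11, 8.84 and 8.81 in Col-0 on NaCl, beside 5.44, 5.27 and 5.26 in iU1-52 and 5.78, 5.03 and 4.29 in Col-0 on MS. It was higher with salt on every array of both lines and reached a lower level in iU1-52. *NAC13*, a transcription factor of the mitochondrial stress response, followed the same order with salt differences of 1.59 in iU1-52 and 2.77 in Col-0.

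*AOX1B*, an alternative oxidase that bypasses part of the mitochondrial electron transport chain, differed more between replicates. It was at 8.77, 5.25 and 7.23 in iU1-52 on NaCl, where the SD was 1.76, and at 9.42, 9.82 and 9.78 in Col-0 on NaCl. The iU1-52 arrays ranged from below all MS arrays of the line to well above them. *PGL5*, an enzyme gene of the oxidative pentose phosphate pathway, was also uneven, with 8.03, 11.25 and 8.02 in iU1-52 and 11.17, 10.65 and 10.69 in Col-0 on NaCl. Its replicate 2 of iU1-52 was higher than every Col-0 NaCl array, so the groups overlapped. The chloroplast glutaredoxin gene *GrxC5* had -0.18 in iU1-52 and 1.14 in Col-0.

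Among genes of the cell wall and of growth, *EXPA10*, an expansin that loosens cell walls, was at 13.96, 13.56 and 13.52 in iU1-52 and at 15.07, 14.80 and 14.94 in Col-0 on NaCl, beside 10.81, 10.86 and 11.24 in iU1-52 and 10.90, 10.79 and 10.85 in Col-0 on MS. The lines overlapped on MS and were separated on NaCl, and 66.2% of the Col-0 difference on the log2 scale was kept. *XTH33*, which remodels xyloglucan, had salt differences of 0.60 in iU1-52 and 2.09 in Col-0. *CYCB1;1*, the cyclin of the step into mitosis, had 0.41 in iU1-52 and 1.49 in Col-0, and the meiotic cohesin gene *SYN1* had -0.68 in iU1-52 and 1.58 in Col-0. From a list of cell wall enzymes, 37 had a feature, of which 7 were called lower in iU1-52 on NaCl (4.97% of all features) and 0 higher (3.94%). The 7 included the 2 members of the list, *EXPA10* and *XTH33*, which were chosen on that difference.

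The transcription factor genes *NGA3*, *SPL4*, *LBD1*, *STH*, *DAZ2*, *BPC3* and *DREB26* had a median salt difference of 0.09 in iU1-52 and 1.5 in Col-0. *NGA3*, a regulator of leaf margin and carpel growth, was at 7.57, 7.38 and 7.15 in iU1-52 and at 9.02, 9.02 and 9.15 in Col-0 on NaCl, beside 7.44, 7.23 and 7.16 in iU1-52 and 7.34, 7.35 and 7.28 in Col-0 on MS. Only Col-0 on NaCl stood above the other groups. *STH*, named for its similarity to the B-box protein SALT TOLERANCE, had -0.04 in iU1-52 and 1.26 in Col-0. *DREB26*, of the family of dehydration-responsive factors, kept 1.25 in iU1-52 of 2.03 in Col-0. *SPL4*, which promotes the change to flowering, depended on the probe: the brightest had 0.02 in iU1-52 and 1.64 in Col-0, whereas the other 2 had -3.23 and -2.74 in iU1-52 and -0.63 and -0.49 in Col-0.

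Of the genes for transport and lipids, the aquaporin gene *NIP7;1* had salt differences of -0.40 in iU1-52 and 1.67 in Col-0, where replicate 2 on NaCl (8.48) was above the others (6.52 and 6.72). The cation exchanger gene *CHX2* had 0.02 in iU1-52 and 1.42 in Col-0. *RD20*, a caleosin of lipid bodies induced by drought and abscisic acid, was at 11.42, 11.98 and 11.77 in iU1-52 and at 12.53, 12.81 and 12.87 in Col-0 on NaCl. It was the single member among 34 measured genes of abscisic acid and water stress, a share of 2.94% beside 0.645% of all features. Of the 34, 13 were called higher in iU1-52 on NaCl (3.94% of all features) and 2 lower (4.97%), the other lower one being *COR15B* (-2.62). The list's median difference on NaCl was 0.84.

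*CRR3*, needed for the chloroplast NDH complex that returns electrons to the plastoquinone pool, was at 6.39, 5.68 and 5.67 in iU1-52 and at 8.55, 8.57 and 8.54 in Col-0 on NaCl, and at 7.43, 7.24 and 7.34 in iU1-52 and 7.44, 7.45 and 7.35 in Col-0 on MS. The lines overlapped on MS and lay on opposite sides of that level on NaCl. *EMB975*, named for its embryo-defective mutant, had -0.31 in iU1-52 and 1.12 in Col-0. The other annotated members were *PAB5* (poly(A)-binding protein), *UGT73C6* (a flavonoid glucosyltransferase), *NUDT4* (a nudix hydrolase), *BT4* (a scaffold of a ubiquitin ligase) and *PGSIP7*, with salt differences between 0.44 and 2.04 in iU1-52.

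Markers of photosynthetic mesophyll, the main green tissue of a seedling, were much lower in salt-grown iU1-52. Of 41 measured genes of that list, 37 were called lower in iU1-52 on NaCl (4.97% of all features), with a median of -2.13 and a mean log2 level of 14.50 to 14.93 in iU1-52 against 16.77 to 16.81 in Col-0, and none was a member. Guard cell and myrosin cell markers ranged from 8.57 to 9.12 in iU1-52 and from 10.01 to 10.13 in Col-0 on NaCl, with 5 of 8 called lower. Of the 30 loci on the list of seed and embryo markers, only 8 had a feature, and *CRA1*, *CRU3*, *OLEO1* and *EM1* were among those without one. The measured seed and embryo markers ranged from 12.38 to 12.56 in iU1-52 and from 11.06 to 11.65 in Col-0, with 5 of the 8 called higher and 1 lower. The part of all these cell type markers in the differences of the members was not tested. In whole seedlings fewer cells of a type and less RNA per cell cannot be told apart.

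The comparison of iU1-52 with Col-0 on MS asks whether the members already differed without salt, and it rests in part on arrays the rule did not use. The rule did use the Col-0 MS arrays, and a low value there favours both membership and a positive difference on MS, so the MS result is not independent of the choice. The median MS difference of the members was -0.02, against -0.01 for all features. With limma over all 24332 features, 2 members were called higher in iU1-52, where 0.242% of all features were, and 0 were called lower, where 0.0247% were. At an unadjusted p under 0.05, 23 members were higher (3.87% of all features) and 2 lower (1.89%).

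The 2 genes called on MS were loci without a gene symbol in the annotation used here. AT3G28220 had 11.04, 11.43 and 10.50 in iU1-52 and 9.16, 9.11 and 7.95 in Col-0 on MS, a difference of 2.24 (SE 0.34, limma adjusted p = 0.020). On NaCl it had 11.89, 12.44 and 11.53 in iU1-52 and 14.35, 14.50 and 14.12 in Col-0. Its iU1-52 level on MS was between the Col-0 levels of the 2 media. AT5G24200 had 8.17, 7.36 and 8.51 in iU1-52 and 6.12, 6.29 and 6.80 in Col-0 on MS, a difference of 1.61 (SE 0.25, limma adjusted p = 0.021), and on NaCl 6.33, 6.37 and 6.29 in iU1-52 and 7.79, 7.88 and 7.97 in Col-0. The lines exchanged their order completely in this gene. The call of AT3G28220 was lost without iU1-52 MS replicate 1 or 2, and that of AT5G24200 without iU1-52 MS replicate 1 or 3 or Col-0 MS replicate 1 or 2.

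All iU1-52 MS arrays were above all Col-0 MS arrays for 25 members, against 7.2% of all features, and below them for 10 members, against 8.71%. The first of these sets held 7 of the 8 features of the jasmonate group and 3 of the 7 genes of the pathogen group. For 24 members (0.867% of all features) the lines were also apart on NaCl with iU1-52 lower. That separation follows largely from the rule, since 152 of the 157 members had it, so nothing is read from the 24. The median MS difference was 0.83 in both groups, and it was between -0.26 and 0.11 in the other 8 groups. A higher level on MS was not particular to the members. Over all 32 measured genes of the jasmonate list the median MS difference was 0.70, against -0.01 for all features. Over the list of salicylic acid and defense it was 0.21. None of the genes of the jasmonate and pathogen groups was called on MS here, so their values are descriptive: *BGL2* had 1.39 (limma adjusted p = 0.13), *MBP1* 1.2 (adjusted p = 0.21), *VSP2* 1.07 (adjusted p = 0.14) and *LOX2* 0.93 (adjusted p = 0.43). The paper used an analysis of variance with a 2-fold limit on these arrays. It does list *MBP1*, *WRKY38*, PR2 (*BGL2*) and *VSP2* as different between the lines in both media. The neighbouring loci AT1G47395 and AT1G47400 had 1.17 (adjusted p = 0.60) and 1.40 (adjusted p = 0.32) on MS, and -1.41 and -1.31 on NaCl.

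**Figure D4:**
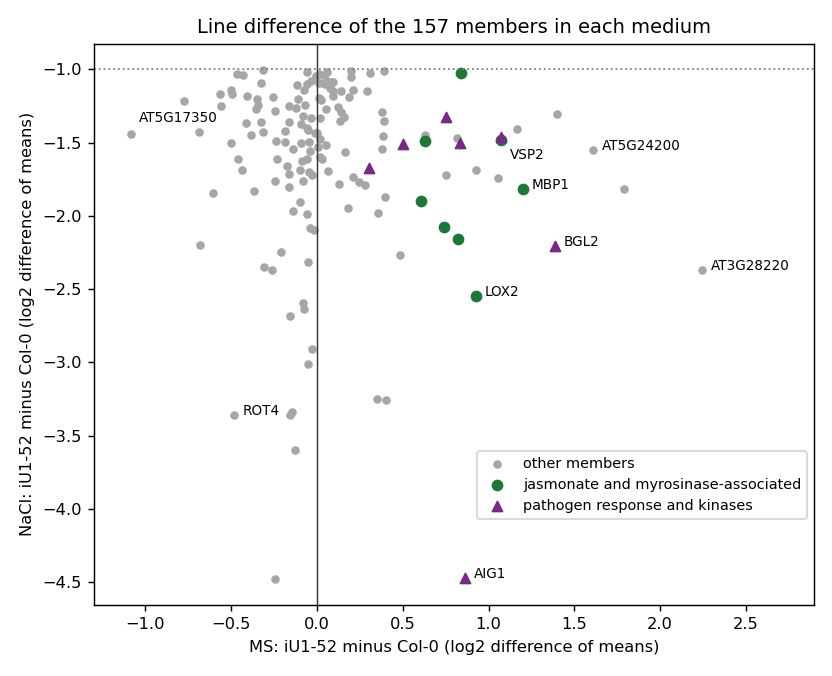
Log2 difference iU1-52 minus Col-0 of the 157 members on NaCl (vertical axis) against MS (horizontal axis), with the jasmonate and the pathogen response groups marked. The members as a whole centre on -0.02 on MS, whereas all features of the jasmonate group and all genes of the pathogen group lie to the right of 0, and AT3G28220 is farthest right at 2.24.

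The choice was repeated with each replicate number left out in turn, and both differences were then read in the 4 arrays left out. With replicate 3 left out, 147 features were chosen on the others, and 117 of them (79.6%) met both differences in replicate 3, against 0.884% of all features. With replicate 2 left out it was 100 of 138 (72.5%, against 0.999%), and with replicate 1 left out 83 of 221 (37.6%, against 0.538%). The signs of both differences were those of the rule for 100%, 97.1% and 93.7% of the chosen features in the same order. The median difference between the lines on NaCl in the arrays left out was -1.63 in replicate 3, -1.58 in replicate 2 and -0.83 in replicate 1, so replicate 1 showed a smaller gap. Of the 157 members, 65 met both differences in each replicate on its own.

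For 29 member loci the arrays held 35 further probes. Of these, 31 were higher with salt in Col-0 and lower in iU1-52 on NaCl, 26 met both limits, and the medians were 1.66 and -1.49. The 3 other probes of *LOX2* had differences of -1.74 to -2.76 between the lines on NaCl, and the 2 of *LTP6* had -3.06 and -3.04. The exceptions were both other probes of *SPL4*, 1 of AT2G40520 and that of AT5G20450. The member loci lay on chromosomes 1 (36 loci), 2 (21), 3 (15), 4 (24) and 5 (27), and 8 pairs were neighbours in the annotation with at most 1 coding gene between them. These included AT1G18290 with *NUDT4*, AT2G02620 with AT2G02630, *ROT4* with AT2G37000, and the run of AT4G15660, AT4G15670 and AT4G15680, whose differences on NaCl were -1.19, -1.69 and -1.14. Hybridization of one transcript to a neighbour's probe was not tested.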

How the data were processed

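Per the labels, RNA of whole seedlings was hybridized to 12 one-colour Agilent arrays, 3 per group. The deposited values are linear Cy3 intensity values per spot, which the authors obtained with Feature Extraction 10.7.1.1. The software had subtracted the background and detrended each array, and the arrays had not been normalized against each other. Flags marked spots that were outliers, saturated or well above background.

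Here, control spots and outlier spots were left out of the 43803 non-control spots, spots of one probe were averaged (43603 probes), and the 31522 probes flagged well above background on all 12 arrays were quantile normalized, followed by the log2. The brightest probe stood for each target, which left 24332 features, of which 20649 were matched by accession to a locus of TAIR10.1, used for names and neighbours only. The members, the gene lists and the role groups were chosen with earlier results of these data known. The gene lists count only symbols that name a single locus, so PR2, *AED1*, *RD29A* and others are not in them. The genes named are members with the largest or lowest differences, those called on MS, up to 4 per gene list or class, those next to a limit, and genes singled out after their values were seen.

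The lines were compared on MS with limma 3.58.1 in R 4.3.3 (1 mean per group, shared spread), with Benjamini-Hochberg adjustment over all features. A call needed an adjusted p under 0.05 and a 2-fold difference. The procedure was tested on simulated data. The labels number 3 replicates per group and the paper's methods call them biological replicates, and the number of arrays limits the precision. On MS, the comparison tested, the deviations of the 3 same-numbered pairs of arrays correlated at 0.208, 0.102 and 0.158, so the numbers, each 1 slide, pair these arrays. Over all pairs of groups, 7 of 18 were above 0.1 (range -0.07 to 0.32). The fit reported has no block. Other settings tried were a 75th percentile scaling, normexp correction (offset 50) on the median pixel intensities, another filter, another order of filter and normalization, the mean of all probes, a replicate block, array weights, other fold limits and each array left out. Sequences of probes and promoters were not analysed here.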

Additional observations from a re-analysis of the deposited data

Results flagged for a closer look

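For 24 members, all iU1-52 arrays were above all Col-0 arrays on MS and all below them on NaCl, so the lines differed in opposite directions in the 2 media. The same was found for 0.867% of all features. The opposite direction was not tested, and on NaCl it is part of the rule, with 152 of the 157 members apart there. The log2 difference iU1-52 minus Col-0 on MS was 2.24 for AT3G28220, 1.61 for AT5G24200, 1.40 for AT1G47400 and 1.17 for its neighbour AT1G47395. In the jasmonate and myrosinase-associated group it was 1.2 for *MBP1*, 1.07 for *VSP2*, 0.93 for *LOX2*, 0.84 for *MBP2*, 0.82 and 0.74 for the 2 features of *ARGAH2* and 0.63 for *BGLU18*. Among pathogen response genes and related kinases it was 1.39 for *BGL2*, 1.07 for *WRKY38* and 0.83 for *ARCK1*. The probes without a matched locus were A_84_P857762 at 0.93, A_84_P860828 at 0.81, A_84_P701779 at 0.48 and A_84_P575658 at 0.21. The remaining loci had smaller differences on MS, with 0.40 for AT2G02630, 0.39 for AT4G22755, 0.38 for AT4G02850, 0.36 for AT2G32550, 0.31 for AT1G65490 and 0.0947 for AT5G45700.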

How the results depend on the processing

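The number of members was 157 and stayed within 1.5 times of that under most alternatives. It was 102 with normexp background correction, all of them among the 157, 687 with 1.5-fold limits and 39 with 3-fold limits. With single arrays left out it was 134 to 246, the highest without iU1-52 NaCl replicate 1. With a filter on a signal of 100 it was 197, including 152 of the members. With the members chosen anew under each setting, their median salt difference in iU1-52 was 0.22 to 0.44 over all alternatives and 0.22 to 0.37 with single arrays left out. For the 157 members themselves it was 0.12 without iU1-52 NaCl replicate 1, and the median share kept was 5.88% without that array and 19.6% without Col-0 MS replicate 2, against 20.03% over all arrays. These settings were added after seeing the data. Members below 0 in iU1-52 numbered 58, but 207 with 1.5-fold and 12 with 3-fold limits, and 50 to 83 with single arrays left out. Those still 2-fold higher with salt in iU1-52 numbered 37, but 20 with normexp, 129 with 1.5-fold and 10 with 3-fold limits, and 35 to 54 with single arrays left out. The members called on MS numbered 2, but 1 with normexp, 4 with array weights, 1 with 3-fold limits and 0 to 3 with single arrays left out. Of all features, 65 were called on MS, 42 with normexp, 102 with array weights and 28 to 83 with single arrays left out. The 28 was without iU1-52 MS replicate 2, with 32 without its replicate 3, 41 without Col-0 MS replicate 1 and 37 without Col-0 MS replicate 2. With the replicate number as a block, which pairs the arrays on MS, 59 features and 2 members were called there, AT3G28220 and AT5G24200 as without it, and the members stayed at 157. Of 2981 values of single members between the lines on NaCl under these alternatives, 2902 moved by less than the spread between replicates, 79 moved by more and 0 changed sign, within a range of -5.21 to -0.39. Fewer or more members under other limits follow from the limits, and the cause of the other changes was not tested. The search for promoter motifs was not run.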

Other observations

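Among the 32 member probes without a matched locus, a pair followed nearly the same course over the arrays. A_84_P806562 was at 13.64, 12.17 and 11.90 in iU1-52 and at 15.89, 15.94 and 15.90 in Col-0 on NaCl, and A_84_P806566 at 13.33, 11.93 and 11.67 in iU1-52 and at 15.61, 15.75 and 15.67 in Col-0 on NaCl. On both probes iU1-52 replicate 1 was the nearest to Col-0, and on MS the lines overlapped. Whether the 2 probes read the same transcript was not analysed here. The single iU1-52 array that was far above Col-0 on MS for A_84_P758588 was replicate 1, with 11.19, 8.37 and 7.25 in iU1-52 and 7.48, 7.01 and 6.95 in Col-0 on MS.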
